A study of Mus musculus with 6 samples.

Results

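The genes described here encode the proteins that recognise and fire replication origins, the DNA polymerases with their clamp and clamp loader, the enzymes that process and join nascent strands, the enzymes of deoxynucleotide synthesis, and factors of chromatin assembly and fork protection. They were chosen by name, 47 genes in all, and matched to the single gene symbol of exon probe sets, by current name or synonym. All 47 were found on the array, the 6 origin recognition genes under older names ending in l. A gene value was formed for 45 of them, out of 16871 genes tested in all, and Rpa3 and Rrm2 fell short of the 3 probe sets required.

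The series compared 2 stable lines of OP9 cells, a mouse stromal line that supports the growth of lymphoid and other blood progenitors, on 6 Affymetrix Mouse Exon 1.0 ST arrays. The Smo shRNA line carried a pLKO.1-puro lentiviral short hairpin against Smoothened (Smo), the membrane protein that every canonical Hedgehog signal passes through, and the control shRNA line carried the same vector type with a scrambled hairpin. Total RNA was isolated 3 times from each line, giving 3 Smo shRNA and 3 control shRNA arrays. Both lines were kept below confluence, and no measurement of their growth was used here. As background, OP9 cells derive from mice with the op mutation of Csf1, which both lines share. The labels give neither the number of hairpin sequences nor whether the triplicates stem from independent cultures or transductions. The p-values therefore reflect variation among RNA preparations within each line, which may be technical, and an effect of the hairpin cannot be told apart from another difference between the lines.

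As background, replication starts where the origin recognition complex has loaded the MCM helicase. The kinase Cdc7 with its activator Dbf4, and the 4-subunit GINS complex, turn the loaded helicase into a moving one. Polymerase alpha with its primase lays down primers, polymerase epsilon extends the leading strand and polymerase delta the lagging strand, each held by the sliding clamp Pcna, which the RFC complex loads. Many of these genes are transcribed from late G1 into S phase under the E2F factors. Because the RNA came from whole cultures, a larger share of cells in S phase and more of a transcript in each cell cannot be told apart.

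The arrays were alike in overall level, with medians of 6.56 to 6.59 on the log2 scale, and gene values correlated across genes at 0.996 to 0.998 within a line and 0.979 to 0.981 between lines. Smo, the hairpin's target, read 11.32, 11.36 and 11.44 on the Smo shRNA arrays, against 12.29, 12.22 and 12.24 on the control shRNA arrays, a log2 difference of -0.88 (SE 0.039, adjusted p = 1.13e-09) by limma, which follows the labels. Of 14 stromal markers, all had a level no lower than 6.56, the median over every probe set on the arrays, and 10 of them were lower in Smo shRNA cells, among them Kitl (-0.69), Cxcl12 (-0.72) and Col1a2 (-0.46). Over all 16871 genes tested, 17.4% were lower. Stromal levels ran from 6.90 to 13.36 with a median of 11.65. Markers of other cell types ran from 4.81 to 7.93 for 15 haematopoietic genes (median 6.80, 8 of them at or above 6.56), from 5.39 to 7.53 for 10 endothelial genes (median 6.81, 5 at or above) and from 5.82 to 8.23 for 10 epithelial genes (median 7.34, 8 at or above), so the ranges overlapped with the lowest stromal markers, Nt5e (6.90) and Thy1 (7.34). By limma none of the 15 haematopoietic, 10 endothelial and 9 epithelial markers tested passed in either direction, and 0 of each list had an unadjusted p under 0.05.

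Of the 45 replication and nucleotide genes tested, 39 (86.7%) were higher in Smo shRNA cells, 0 were lower and 6 did not pass the threshold, an adjusted p of 0.05 by limma over all genes. Across all 16871 genes, 21.3% were higher and 17.4% lower. At an unadjusted p under 0.05 the count was also 39 higher and 0 lower. In these 39 genes, and in none of the other 6, the Smo shRNA arrays all lay above the control shRNA arrays, a pattern shown by 26.4% of all genes. The increases were moderate, from 0.11 to 0.98 on the log2 scale, with a median over the 45 genes of 0.46 (1.37-fold), against a median of 0.009 over all genes. A difference of 1.5-fold or more was reached by 10 of the 45, against 2.71% of all genes. Tested against a minimum change of 1.2-fold, 24 of the 45 passed, against 5.67% of all genes. The 24 included all 4 genes of polymerase alpha-primase and all 4 fork protection genes, but 1 of 6 clamp and clamp loader genes.

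**Figure D1:**
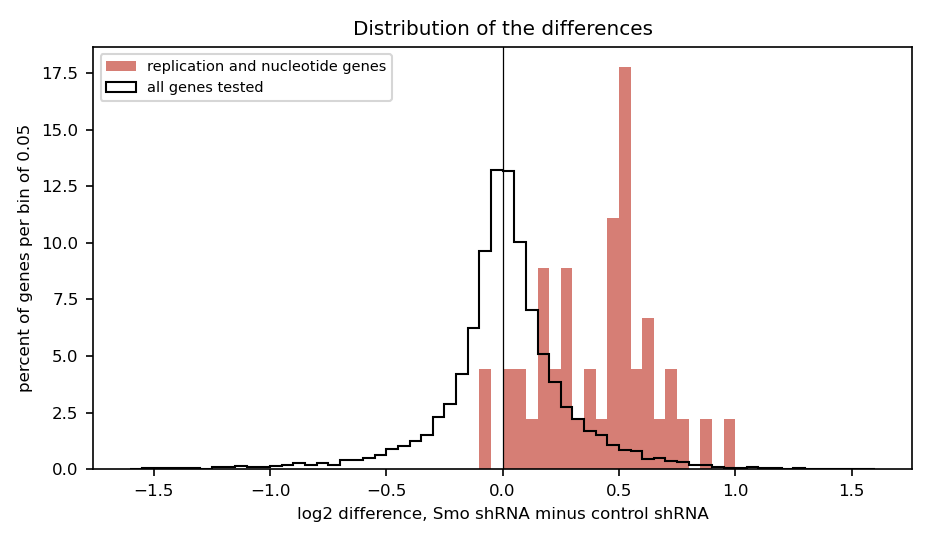
Histogram of log2 differences (Smo shRNA minus control shRNA, x axis) in bins of 0.05, as percent of genes (y axis), for the 45 replication and nucleotide genes (filled red) and all 16871 genes tested (black line). The filled bars run from -0.065 to 0.98 with a median of 0.46, while all genes centre at 0.009, and 73 genes beyond 1.6 in either direction are not drawn.

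By step of replication, the median log2 difference was 0.62 for the 4 fork protection genes, 0.55 for the 4 genes of polymerase alpha-primase, 0.53 for the 5 genes of polymerases delta and epsilon, 0.46 for the 6 origin firing genes and 0.40 for the 6 origin recognition genes. It was 0.38 for the clamp and its loader (6 genes), 0.31 for primer removal and joining (4 genes), 0.22 for single-strand binding (2 genes), 0.19 for chromatin assembly and histone mRNA (3 genes) and 0.19 for nucleotide synthesis (4 genes). The 6 genes that did not pass came from 4 steps, namely Orc3, Gins4, Fen1, Rnaseh2b, Rrm1 and Tyms, and their differences lay between -0.065 and 0.095. No test compared the steps with each other.

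**Figure D2:**
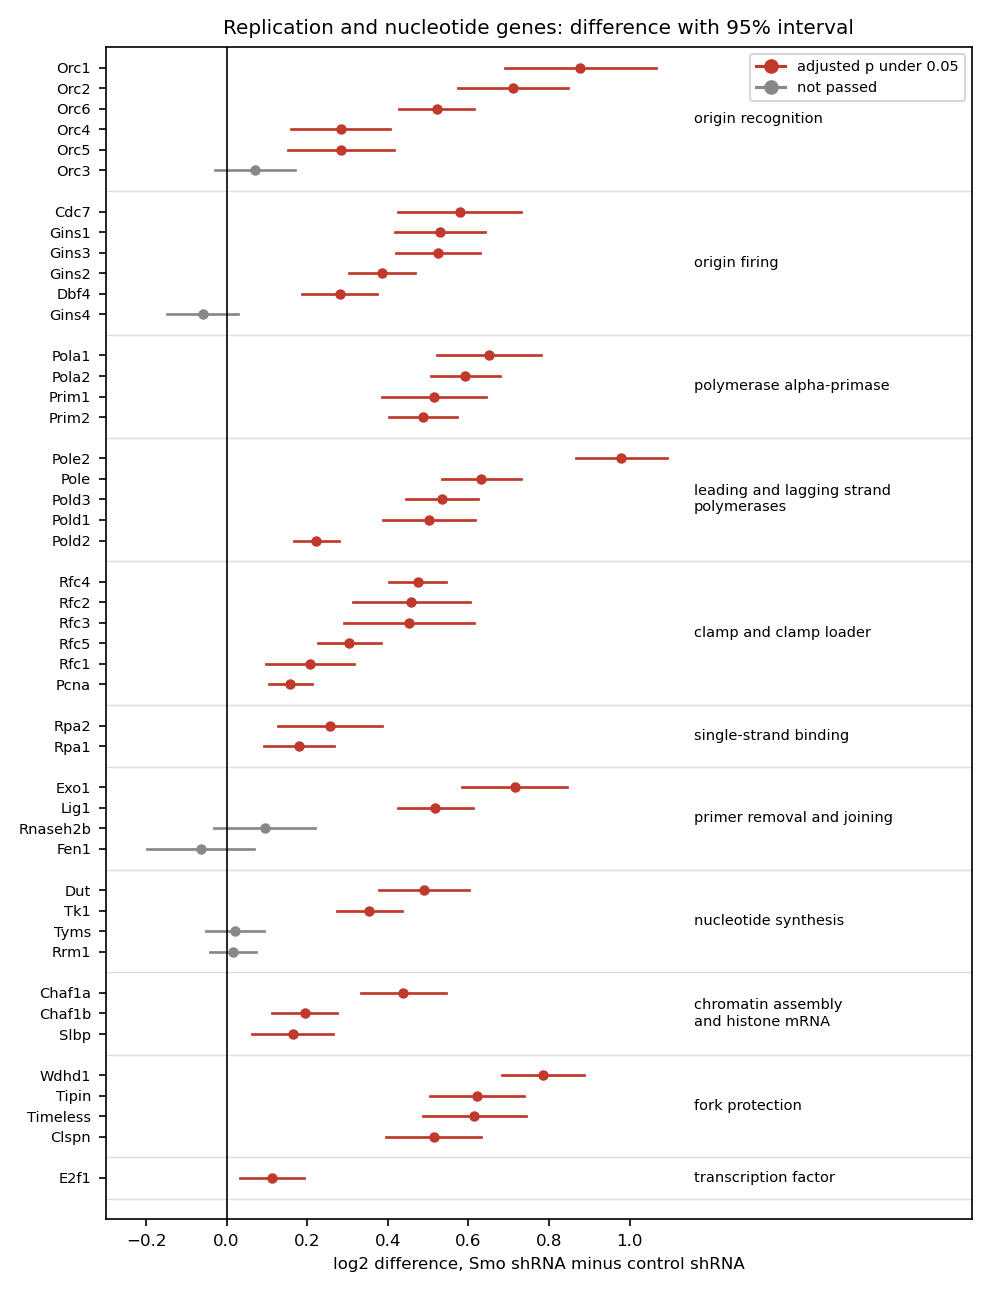
Log2 difference of each gene (Smo shRNA minus control shRNA, x axis) with its 95% interval from limma, grouped by replication step down the page. Red marks genes with an adjusted p under 0.05 and grey those that did not pass; Pole2 at 0.98 and Orc1 at 0.88 lie farthest right, and the 6 grey genes straddle 0.

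Because most of these genes moved in the same direction, their promoters were searched for an E2F word, meaning any of the 8 letters TTTCCCGC, TTTCGCGC, TTTGCCGC or TTTGGCGC on either strand. The RefSeq promoter table (GRCm38.p6, from 250 bases before to 50 bases after a start site) held 38 of the 47 genes and not Gins1, Gins2, Gins4, Prim2, Pole, Rfc2, Exo1, Rnaseh2b and Tipin. An E2F word stood in a promoter of 10 of the 38 genes (26.3%), against 2.6% of the 27025 genes in the table and 4.0% of the 13194 of them that were tested on the arrays. The genes were chosen by name as replication genes, many of them known to be under E2F factors. The excess over all genes therefore describes that choice and not the change between the lines. The word was found for 9 of 32 genes that were higher (28.1%) and for 1 of 4 that did not pass (25.0%). Whether it goes with the difference between the lines was not tested. A CCAAT box, the letters CCAAT on either strand, was found for 19 of the 38 genes (50%), against 41.1% of all genes in the table. A match is a run of letters and not a measured binding site.

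The promoters of Pole2 and Orc1, the 2 genes with the largest increases, of Rfc3, which holds 2 words, and of Orc3, which holds a word and did not pass, are shown 5′ to 3′ on the strand of the gene from RefSeq (GRCm38.p6), with the E2F words in capitals.
Pole2, chr12:69228141-69228440, minus strand: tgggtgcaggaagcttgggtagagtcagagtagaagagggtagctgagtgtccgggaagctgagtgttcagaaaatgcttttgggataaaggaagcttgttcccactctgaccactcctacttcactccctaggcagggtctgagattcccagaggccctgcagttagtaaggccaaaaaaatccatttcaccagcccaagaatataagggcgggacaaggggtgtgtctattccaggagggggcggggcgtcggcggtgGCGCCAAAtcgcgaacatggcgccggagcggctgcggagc
Orc1, chr4:108579204-108579503, plus strand: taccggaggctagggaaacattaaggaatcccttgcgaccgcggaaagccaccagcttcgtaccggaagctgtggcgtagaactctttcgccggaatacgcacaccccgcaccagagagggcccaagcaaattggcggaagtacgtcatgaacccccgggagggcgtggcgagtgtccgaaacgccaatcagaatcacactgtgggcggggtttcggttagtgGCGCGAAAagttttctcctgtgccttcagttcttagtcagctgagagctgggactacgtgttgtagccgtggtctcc
Rfc3, chr5:151651159-151651458, minus strand: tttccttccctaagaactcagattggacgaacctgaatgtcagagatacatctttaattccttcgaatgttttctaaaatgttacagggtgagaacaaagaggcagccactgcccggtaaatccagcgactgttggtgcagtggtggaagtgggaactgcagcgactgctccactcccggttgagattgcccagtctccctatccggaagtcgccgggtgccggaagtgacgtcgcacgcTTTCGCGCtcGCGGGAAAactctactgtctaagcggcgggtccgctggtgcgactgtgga
Orc3, chr4:34614893-34615192, minus strand: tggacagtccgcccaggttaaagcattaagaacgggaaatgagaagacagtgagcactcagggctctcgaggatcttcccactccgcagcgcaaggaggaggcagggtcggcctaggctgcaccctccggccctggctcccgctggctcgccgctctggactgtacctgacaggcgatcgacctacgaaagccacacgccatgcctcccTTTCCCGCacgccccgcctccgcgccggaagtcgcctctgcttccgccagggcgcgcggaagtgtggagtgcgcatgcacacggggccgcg

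The word began 10 bases after the start site in Pole2, 27 bases before it in Orc1 and 41 bases before it in Orc3, and the 2 words of Rfc3 began 10 bases before and at the start site.

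Among the subunits of the origin recognition complex, Orc1 and Orc2 changed most and Orc3 did not pass. Orc1, the ATPase subunit whose level is known to vary over the cell cycle, read 8.94, 8.87 and 8.97 on the Smo shRNA arrays, against 8.07, 7.85 and 8.22 on the control shRNA arrays. The groups were far apart, with a log2 difference of 0.88 (SE 0.087, adjusted p = 2.36e-06), or 1.84-fold higher, and control shRNA replicate 2 was the lowest array. Orc2, a core subunit, read 10.58, 10.66 and 10.78 on the Smo shRNA arrays, against 10.03, 9.85 and 9.997 on the control shRNA arrays, a difference of 0.71 (SE 0.063, adjusted p = 8.67e-07) or 1.64-fold. Orc6, the smallest subunit, read 11.65, 11.52 and 11.55 on the Smo shRNA arrays, against 11.07, 11.02 and 11.07 on the control shRNA arrays, a difference of 0.52 (SE 0.043, adjusted p = 4.51e-07). For Orc1, Orc2 and Orc6 every Smo shRNA array lay above every control shRNA array. Orc4 and Orc5, 2 further ATPase-related subunits, each rose by 0.28 on the log2 scale, with adjusted p of 0.0011 and 0.00186. The Orc4 call was lost without Smo shRNA replicate 3 (0.24), and the Orc5 call without Smo shRNA replicate 1 (0.26), 2 (0.26) or 3 (0.24), with adjusted p of at most 0.067 and 0.0859 over the alternatives that tested against no change. Orc3, which binds Orc2 in the complex, overlapped between the lines at 10.90, 10.84 and 10.93 in Smo shRNA cells and 10.83, 10.76 and 10.86 in control shRNA cells. Its difference was 0.071 (SE 0.046, adjusted p = 0.275), with a 95% interval of -0.029 to 0.17, while those of Orc2 and Orc6 were 0.57 to 0.85 and 0.43 to 0.61. The difference between Orc3 and the other subunits was not tested.

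In origin firing, 5 of 6 genes rose. Cdc7, the kinase that phosphorylates the loaded helicase, read 8.90, 8.84 and 8.91 on the Smo shRNA arrays, against 8.32, 8.19 and 8.41 on the control shRNA arrays, a difference of 0.58 (SE 0.071, adjusted p = 1.63e-05). Dbf4, its activating subunit, rose by 0.28 (SE 0.043, adjusted p = 0.000122), so catalytic and activating subunits were both higher. Of the GINS complex, which joins the helicase to make it active, Gins1 (Psf1) read 10.85, 10.79 and 10.86 on the Smo shRNA arrays, against 10.34, 10.21 and 10.36 on the control shRNA arrays, and Gins3 (Psf3) read 10.53, 10.52 and 10.55 on the Smo shRNA arrays, against 10.06, 9.98 and 9.99 on the control shRNA arrays. Neither gene overlapped between the lines, with differences of 0.53 (SE 0.052, adjusted p = 2.16e-06) and 0.52 (SE 0.048, adjusted p = 1.12e-06). Gins2 (Psf2) rose by 0.39 (SE 0.038, adjusted p = 2.25e-06). Gins4 (Sld5), the remaining subunit of the same complex, read 11.57, 11.55 and 11.51 on the Smo shRNA arrays, against 11.65, 11.53 and 11.63 on the control shRNA arrays. Its arrays overlapped, with a difference of -0.059 (SE 0.041, adjusted p = 0.305) and a 95% interval of -0.15 to 0.029, against 0.42 to 0.64 for Gins1, 0.30 to 0.47 for Gins2 and 0.42 to 0.63 for Gins3. Whether Gins4 differed from the other subunits was not tested. Of the 13 Gins4 probe sets, 2 had a positive difference and 0 passed in either direction.

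All 4 genes of polymerase alpha-primase, the enzyme that starts each new strand, rose, by 0.49 to 0.65. Pola1, the catalytic subunit, read 10.43, 10.54 and 10.42 on the Smo shRNA arrays, against 9.81, 9.72 and 9.91 on the control shRNA arrays, a difference of 0.65 (SE 0.060, adjusted p = 1.12e-06) or 1.57-fold. Its 38 probe sets all passed as higher. Pola2, the regulatory B subunit, read 11.54, 11.59 and 11.63 on the Smo shRNA arrays, against 11.02, 10.98 and 11.00 on the control shRNA arrays, a difference of 0.59 (SE 0.040, adjusted p = 6.15e-08). Prim1, the catalytic primase subunit, read 10.39, 10.42 and 10.47 on the Smo shRNA arrays, against 9.94, 9.79 and 9.999 on the control shRNA arrays, a difference of 0.51 (SE 0.059, adjusted p = 9.57e-06), and the large primase subunit Prim2 rose by 0.49 (SE 0.039, adjusted p = 3.12e-07). In all 4 genes the lowest Smo shRNA array exceeded the highest control shRNA array.

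Pole2, the second subunit of the leading strand polymerase epsilon, had the largest difference of all 45 genes. It read 11.26, 11.17 and 11.28 on the Smo shRNA arrays, against 10.29, 10.16 and 10.33 on the control shRNA arrays, a difference of 0.98 (SE 0.053, adjusted p = 6.97e-09) or 1.97-fold higher, and 19 of its 21 probe sets passed as higher. Pole2 lies on chromosome 12, where the median difference of the 574 tested genes was 0.16 and 47.2% were higher, and the part of this in the value of Pole2 was not tested. Pole, the catalytic subunit on chromosome 5 (median over its genes -0.012), read 11.12, 11.15 and 11.15 on the Smo shRNA arrays, against 10.44, 10.53 and 10.56 on the control shRNA arrays, a difference of 0.63 (SE 0.045, adjusted p = 1.14e-07) or 1.55-fold. For polymerase delta, which copies the lagging strand, the accessory subunit Pold3 read 11.67, 11.65 and 11.76 on the Smo shRNA arrays, against 11.18, 11.11 and 11.18 on the control shRNA arrays, a difference of 0.53 (SE 0.042, adjusted p = 2.46e-07). The catalytic subunit Pold1 rose by nearly the same amount, 0.50 (SE 0.053, adjusted p = 4.15e-06), and Pold2, a second accessory subunit, by 0.22 (SE 0.026, adjusted p = 1.01e-05). Pold4, a further accessory subunit read from a list described below, did not pass (-0.12, adjusted p = 0.178). Pold2 lies on chromosome 11, as do Rpa1 and Tk1 below. There 29.4% of the 1370 tested genes were higher, with a median difference of 0.044, and the part of this in the 3 values was not tested.

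The clamp and its loader rose in all 6 cases, by 0.16 to 0.47. Among the subunits of the RFC loader, Rfc4 read 12.38, 12.32 and 12.36 on the Smo shRNA arrays, against 11.89, 11.84 and 11.91 on the control shRNA arrays, a difference of 0.47 (SE 0.033, adjusted p = 7.69e-08). Rfc2 read 10.30, 10.41 and 10.32 on the Smo shRNA arrays, against 9.88, 9.75 and 10.03 on the control shRNA arrays, a difference of 0.46 (SE 0.067, adjusted p = 8.42e-05), and Rfc3 read 11.13, 11.28 and 10.98 on the Smo shRNA arrays, against 10.67, 10.56 and 10.82 on the control shRNA arrays, a difference of 0.45 (SE 0.075, adjusted p = 0.000242). Rfc3 was the most variable of the 3 among Smo shRNA arrays, and its groups still did not overlap. Rfc5 rose by 0.30 (SE 0.036, adjusted p = 1.25e-05) and Rfc1, the large subunit, by 0.21 (SE 0.051, adjusted p = 0.00481). The Rfc1 call was lost without Smo shRNA replicate 2 (0.18) or 3 (0.20), and its adjusted p reached 0.0581. Pcna, the sliding clamp itself, rose least, by 0.16 (SE 0.025, adjusted p = 0.000154), or 1.12-fold. Of its 15 probe sets, 13 had a mean log2 level of 12 or more and differences of 0.082 to 0.33, and 10 of these 13 passed as higher. The 2 with a mean under 10 differed by 0.95 and 1.21, and of these only the 1.21 passed.

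The single-strand binding protein RPA, which coats unwound DNA, rose by small amounts. Rpa2 read 10.29, 10.19 and 10.13 on the Smo shRNA arrays, against 9.99, 9.85 and 10.002 on the control shRNA arrays, a difference of 0.26 (SE 0.060, adjusted p = 0.00334), and its call was lost without Smo shRNA replicate 1 (0.21) or 2 (0.25), with adjusted p up to 0.087. The large subunit Rpa1 read 11.29, 11.32 and 11.28 on the Smo shRNA arrays, against 11.12, 11.07 and 11.15 on the control shRNA arrays, a difference of 0.18 (SE 0.040, adjusted p = 0.00249). Rpa3, the smallest subunit, had 1 probe set above the filter, at 10.38, 10.56 and 10.69 on the Smo shRNA arrays, against 10.14, 9.99 and 10.29 on the control shRNA arrays. In a fit that admitted genes with 1 probe set (20356 genes), Rpa3 differed by 0.40 (SE 0.090, adjusted p = 0.00649).

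The genes that remove primers and join fragments were split. Exo1, a 5′ to 3′ exonuclease also used in mismatch repair, read 9.71, 9.70 and 9.74 on the Smo shRNA arrays, against 9.02, 8.91 and 9.08 on the control shRNA arrays, a difference of 0.71 (SE 0.060, adjusted p = 5.28e-07) or 1.64-fold. Lig1, the ligase that seals Okazaki fragments, read 10.86, 10.85 and 10.87 on the Smo shRNA arrays, against 10.35, 10.32 and 10.35 on the control shRNA arrays, a difference of 0.52 (SE 0.043, adjusted p = 4.61e-07), and all 34 of its probe sets were positive, 32 of them past the threshold. In both genes the arrays of the lines lay well apart. Fen1, the flap endonuclease that acts just before Lig1, read 10.07, 10.15 and 10.21 in Smo shRNA cells and 10.30, 10.10 and 10.22 in control shRNA cells, with overlapping groups, a difference of -0.065 (SE 0.061, adjusted p = 0.48) and an interval of -0.20 to 0.068. Fen1 rests on 4 probe sets, the fewest of any gene here, and none of them passed. Rnaseh2b, a subunit of the enzyme that removes ribonucleotides from DNA, differed by 0.095 (SE 0.058, adjusted p = 0.239). Other subunits of that enzyme, read from a list described below, were higher, namely Rnaseh2a (0.17, adjusted p = 0.0444) and Rnaseh2c (0.29, adjusted p = 0.000426).

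Nucleotide synthesis was split in the same way. Dut, which hydrolyses dUTP and so keeps uracil out of DNA, read 11.16, 11.10 and 11.14 on the Smo shRNA arrays, against 10.67, 10.54 and 10.72 on the control shRNA arrays, a difference of 0.49 (SE 0.052, adjusted p = 4.18e-06) or 1.40-fold. Tk1, the S-phase thymidine kinase of the salvage route, read 11.86, 11.78 and 11.85 on the Smo shRNA arrays, against 11.51, 11.48 and 11.45 on the control shRNA arrays, a difference of 0.35 (SE 0.037, adjusted p = 3.88e-06). Rrm1, the large subunit of ribonucleotide reductase, read 12.89, 12.93 and 12.87 on the Smo shRNA arrays, against 12.87, 12.87 and 12.91 on the control shRNA arrays. Tyms, which makes thymidylate by the de novo route, read 11.95, 11.93 and 12.001 on the Smo shRNA arrays, against 11.93, 11.92 and 11.96 on the control shRNA arrays. For Rrm1 and Tyms the groups overlapped, and the intervals of -0.041 to 0.073 and -0.051 to 0.093 around differences of 0.016 and 0.021 (adjusted p = 0.715 and 0.697) stayed within 0.1 on both sides of 0. The 21 Rrm1 probe sets ran from -0.051 to 0.11 and none passed, and 2 of 16 Tyms probe sets passed as higher. Tyms also had 3 probe sets shared with another symbol, which were left out.

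Rrm2, the small subunit of ribonucleotide reductase and the one that is limiting in S phase, could be read from 1 probe set only. It gave 8.18, 8.37 and 8.33 on the Smo shRNA arrays, against 8.07, 7.67 and 7.96 on the control shRNA arrays, with no overlap. The difference was 0.39 (SE 0.11, adjusted p = 0.0182) in the fit over 20356 genes that admitted 1 probe set. The same probe set did not pass in the fit over all 245574 probe sets (adjusted p = 0.0782), so the call depends on which fit is used. Rrm2, like Pole2, lies on chromosome 12, where 47.2% of the 574 tested genes were higher and their median difference was 0.16. The part of this in the Rrm2 value was not tested.

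The 15 brightest of the 45 genes, with mean log2 levels of 11.29 or more, had a median difference of 0.30, the middle 15 of 0.49 and the dimmest 15, at 10.27 or less, of 0.51. Pcna (mean 13.30 in Smo shRNA and 13.14 in control shRNA cells), Rrm1 and Pold2 were the brightest 3. The part of brightness in the small differences of these genes was not tested.

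In chromatin assembly, Chaf1a, the large subunit of the CAF-1 complex that places new histones behind the fork, read 10.44, 10.48 and 10.46 on the Smo shRNA arrays, against 10.05, 9.97 and 10.06 on the control shRNA arrays, a difference of 0.44 (SE 0.049, adjusted p = 7.14e-06). Its partner Chaf1b read 11.66, 11.62 and 11.59 on the Smo shRNA arrays, against 11.46, 11.42 and 11.41 on the control shRNA arrays, a smaller difference of 0.19 (SE 0.037, adjusted p = 0.00079). Slbp, which binds the stem-loop of replication-dependent histone mRNAs, read 10.88, 10.83 and 10.94 on the Smo shRNA arrays, against 10.70, 10.69 and 10.76 on the control shRNA arrays. The groups did not overlap and the difference was 0.16 (SE 0.047, adjusted p = 0.0121), a call that was lost without Smo shRNA replicate 1 (0.16) or 3 (0.13) and without control shRNA replicate 1 (0.15) or 2 (0.13), with adjusted p up to 0.0853.

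All 4 fork protection genes rose, by 0.51 to 0.79. Wdhd1 (And-1), which tethers polymerase alpha to the helicase, read 11.16, 11.17 and 11.19 on the Smo shRNA arrays, against 10.36, 10.33 and 10.47 on the control shRNA arrays, a difference of 0.79 (SE 0.047, adjusted p = 1.97e-08) or 1.72-fold, and all 28 of its probe sets passed as higher. Tipin and Timeless form a complex at the fork. Tipin read 10.67, 10.60 and 10.69 on the Smo shRNA arrays, against 10.09, 9.94 and 10.07 on the control shRNA arrays, a difference of 0.62 (SE 0.054, adjusted p = 6.71e-07). Timeless read 9.53, 9.58 and 9.66 on the Smo shRNA arrays, against 8.99, 8.93 and 8.99 on the control shRNA arrays, a difference of 0.61 (SE 0.059, adjusted p = 1.76e-06), so both partners were higher with no overlap. Clspn, the adaptor through which stalled forks activate Chek1, rose by 0.51 (SE 0.054, adjusted p = 4.39e-06).

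E2f1, a transcription factor of this programme, had the smallest difference among the 39 genes that rose. It read 11.63, 11.57 and 11.59 on the Smo shRNA arrays, against 11.51, 11.48 and 11.46 on the control shRNA arrays, a difference of 0.11 (SE 0.037, adjusted p = 0.0245) or 1.08-fold. The groups did not overlap, but the call was lost without Smo shRNA replicate 1 (0.069), 2 (0.0999) or 3 (0.097), without control shRNA replicate 3 (0.10), with the mean of probe sets and without a variance trend. The adjusted p ran from 0.0159 to 0.264 over the alternatives that tested against no change. Of its 13 probe sets 5 passed as higher and 1 as lower, that probe set by -0.46.

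**Figure D3:**
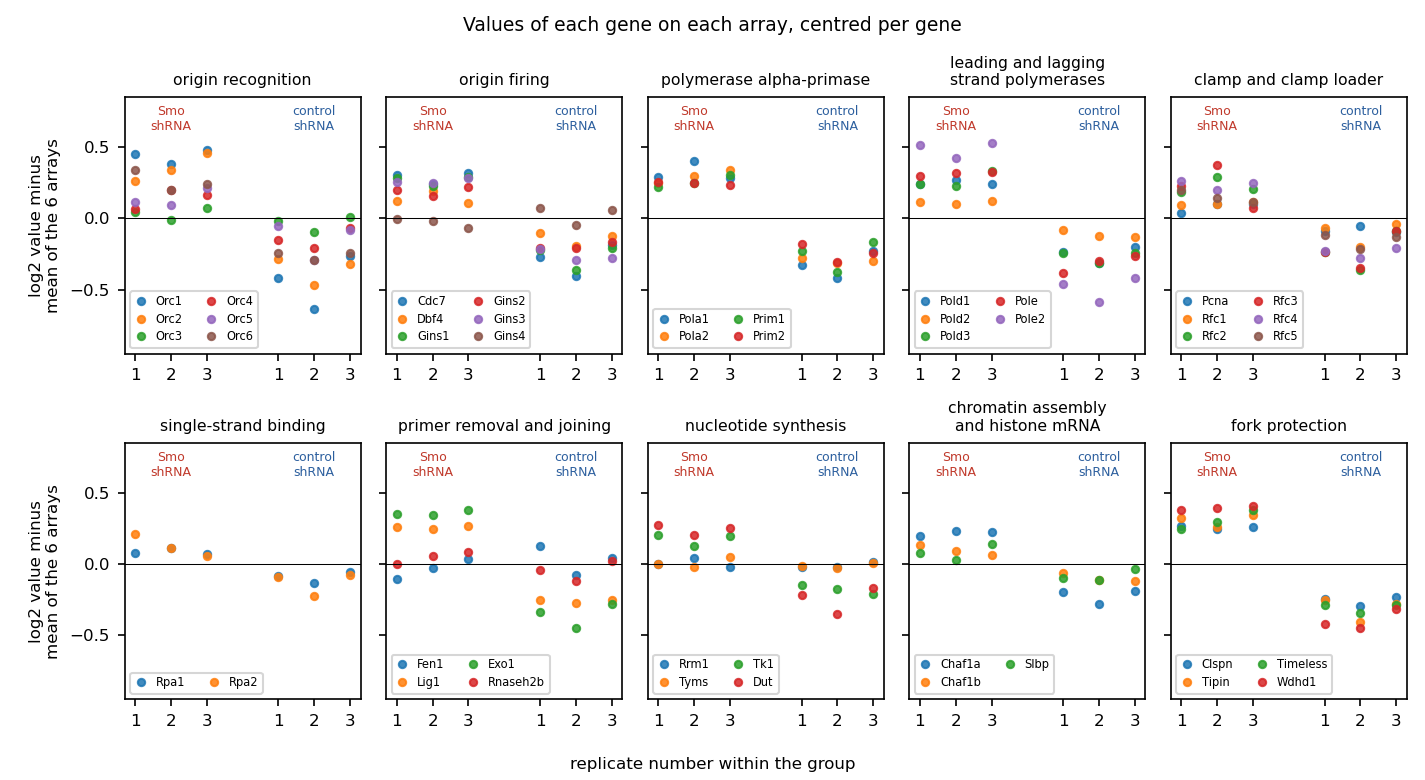
Log2 value of each gene on each array minus its mean over the 6 arrays (y axis), by replicate number within Smo shRNA (left) and control shRNA (right), with 1 panel per replication step and 1 colour per gene, for all the genes tested except E2f1. The groups separate in every panel except for Orc3, Gins4, Fen1, Rnaseh2b, Rrm1 and Tyms, and control shRNA replicate 2 is the lowest control array for 38 of the 45 genes.

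Control shRNA replicate 2 was the lowest control array for 38 of the 45 genes, with a mean over them of 10.53, against 10.62 and 10.64 on the other control arrays, while the Smo shRNA arrays lay at 11.00, 10.99 and 11.01. Without that array 38 of 45 genes were higher and 0 lower, and the median difference was 0.40.

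Within most genes the probe sets moved together. Which exon each probe set reads was not examined, and they are not counted as independent measurements of a gene. Over the 45 genes and the single probe sets of Rpa3 and Rrm2, 579 of 841 probe sets passed as higher and 1 as lower, against 17.5% higher and 12.4% lower of all 245574 probe sets, and 91.3% had a positive difference, against 53.6% of all probe sets. In 33 of the 39 genes that rose, most probe sets passed on their own, and in 5 of them all did. Chaf1b, E2f1, Rfc1, Rpa1, Rpa2 and Slbp were the 6 in which no more of them passed than did not, each with a small gene difference. In several genes a single probe set stood apart from the rest. In Exo1, 1 dim probe set differed by 2.08 (mean 7.87 in Smo shRNA and 5.79 in control shRNA cells) against a gene value of 0.71. In Pole, 1 dim probe set differed by -0.59 without passing (adjusted p = 0.093). The largest probe set difference was 1.04 in Rfc1, 0.997 in Rpa1, 0.92 in Rfc5 and 0.83 in Dbf4. The gene values of these were 0.21, 0.18, 0.30 and 0.28.

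**Figure D4:**
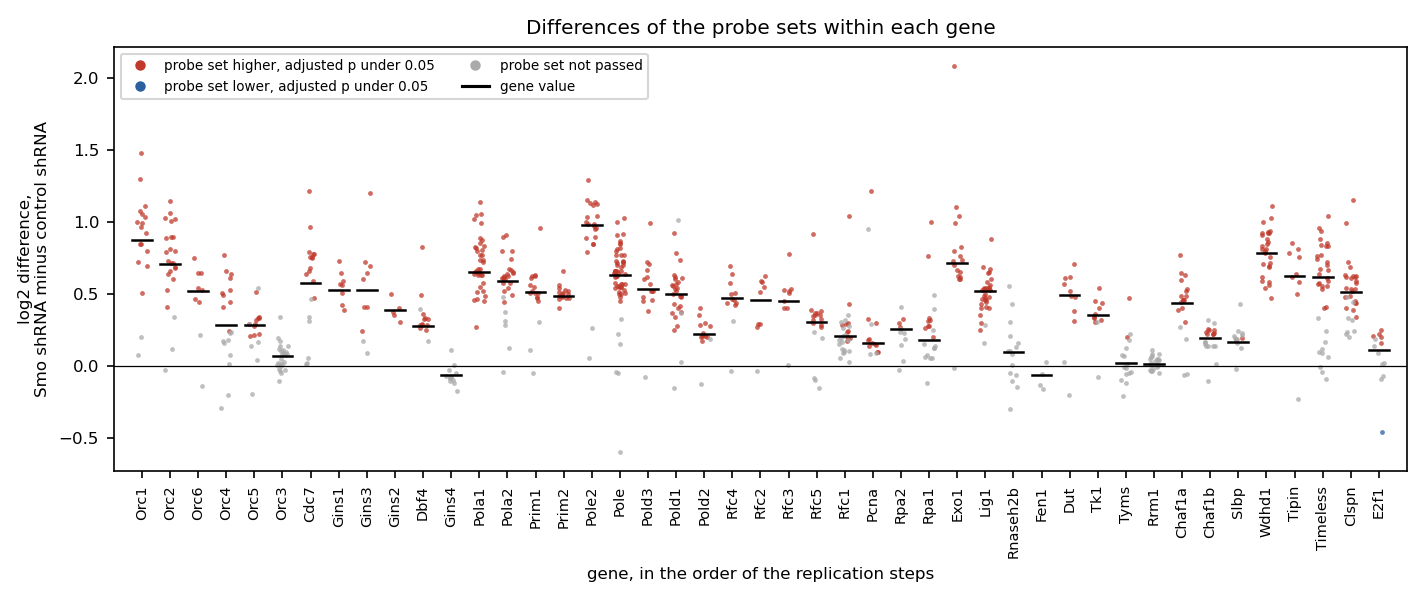
Log2 difference (Smo shRNA minus control shRNA, y axis) of every probe set within each of the 45 genes (x axis, in the order of the replication steps), with red, blue and grey points for probe sets that passed as higher, passed as lower or did not pass, and a black bar for the gene value. All 38 points of Pola1 and all 28 of Wdhd1 are red, the points of Rrm1 lie between -0.051 and 0.11, and the only blue point is in E2f1.

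Whether partners in a complex changed by different amounts was examined for 12 pairs, of which 11 could be formed, by taking the first gene minus the second on each array. With 3 arrays against 3, the smallest p an exact two-sided permutation test allows is 0.1, so no pair could pass. In 5 pairs the groups did not overlap (exact p = 0.1 each, 0.22 after Benjamini-Hochberg adjustment over the 11). How often arbitrary pairs of genes separate in this way was not measured. Of single genes, 26.4% lay higher and 21.4% lower in Smo shRNA cells without overlap, so the count of pairs is only a description. Pole2 minus Pole was 0.35 greater in Smo shRNA cells, with values of 0.098 ± 0.061 in Smo shRNA and -0.25 ± 0.10 in control shRNA cells (SD, n = 3 each). Pole2 lies on chromosome 12 and Pole on chromosome 5, where the median differences were 0.16 and -0.012, and the part of this in the shift was not tested. The shift was 0.28 for Pold1 minus Pold2 and 0.25 for Rfc3 minus Rfc1. It was -0.24 for Chaf1b minus Chaf1a and -0.30 for Dbf4 minus Cdc7, which was -0.17 without control shRNA replicate 2. The groups overlapped for Orc1 minus Orc2 (0.17, exact p = 0.3), Orc6 minus Orc2 (-0.19, exact p = 0.2) and Rpa2 minus Rpa1 (0.077, exact p = 0.2). Tipin minus Timeless shifted by 0.0075, Prim1 minus Prim2 by 0.026 and Pola2 minus Pola1 by -0.058, in each case with overlapping groups and an exact p of 0.5 or more (0.61 or more after adjustment). These small shifts were not steady. Pola2 minus Pola1 was -0.15 without control shRNA replicate 3, -0.15 without Smo shRNA replicate 3 and -0.15 with the mean of probe sets, Prim1 minus Prim2 was -0.021 without Smo shRNA replicate 3 and -0.0245 without control shRNA replicate 2, and Tipin minus Timeless lay between 0.042 and 0.12 without 1 array.

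**Figure D5:**
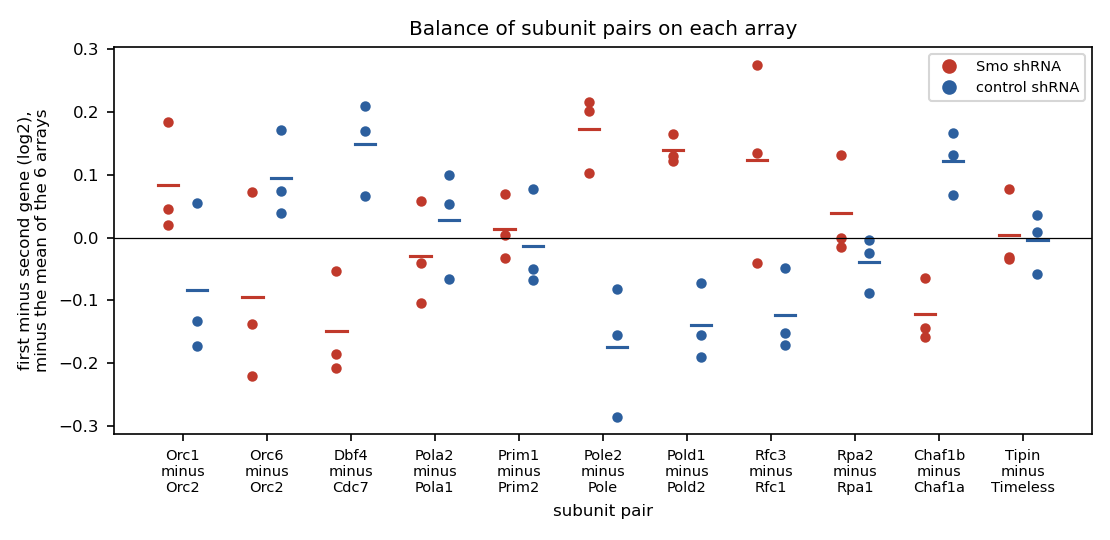
First gene minus second gene on each array, centred on the mean of the 6 arrays (y axis, log2), for 11 subunit pairs (x axis), with Smo shRNA points in red left of control shRNA points in blue and short bars at the group means. Pole2 minus Pole shows the widest gap (0.35), and the points of Tipin minus Timeless overlap.

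Other genes of the same machinery were read from lists of related genes. Their counts stand beside 21.3% higher and 17.4% lower over all 16871 genes tested. All 18 genes of the helicase and its loading were higher, with a median of 0.48. Those with the smallest p were Mcm2 (0.95, adjusted p = 6.67e-10) and Mcm5 (0.69, adjusted p = 6.42e-09), subunits of the helicase, and the loader Cdt1 (0.68, adjusted p = 2.11e-08). Of 25 other replisome and processing genes, 16 were higher, 2 lower and 7 did not pass, with a median of 0.20. Those that rose included the checkpoint kinase Chek1 (0.92, adjusted p = 4.68e-09), Atad5 (1.03, adjusted p = 2.21e-07), which unloads the clamp, and the nuclease-helicase Dna2 (0.85, adjusted p = 2.95e-07). The 2 that fell were Smarcal1 (-0.30, adjusted p = 0.00127), a fork remodeller, and Pole3 (-0.14, adjusted p = 0.0266), an accessory subunit of polymerase epsilon, the complex to which Pole2 belongs. Pole4 (0.20, adjusted p = 0.00422), another accessory subunit of that complex on the list, was higher.

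Of 39 other nucleotide metabolism genes, 26 were higher (66.7%), 3 lower and 10 did not pass, with a median of 0.24. Of all genes tested, 21.3% were higher and 17.4% lower. The folate enzymes Shmt2 (0.59, adjusted p = 5.68e-10) and Mthfd1 (1.05, adjusted p = 1.58e-08), which supply one-carbon units, and the purine synthesis enzyme Pfas (0.80, adjusted p = 1.62e-07) were higher. Samhd1 (-0.53, adjusted p = 3.93e-09), which breaks down deoxynucleotides, Nme4 (-0.21, adjusted p = 0.0255) and Impdh1 (-0.14, adjusted p = 0.0407) were lower. Among 15 other histone chaperone genes, 9 were higher (60.0%) and 2 lower, against the same shares of all genes. Asf1b (0.43, adjusted p = 8.01e-08), Nasp (0.42, adjusted p = 4.53e-06) and Hat1 (0.31, adjusted p = 5.82e-06) were on the higher side. Ubn1 (-0.87, adjusted p = 4.66e-08) and Supt16 (-0.14, adjusted p = 0.0109) were on the lower side. Ubn1 belongs to the HIRA complex, which places histones outside replication, and the other members of that complex on the list, Hira (0.27, adjusted p = 0.000516) and Cabin1 (0.17, adjusted p = 0.0157), were higher, as was Asf1a (0.24, adjusted p = 0.025).

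Of 17 other E2F and RB family genes, 15 were higher (88.2%), against 21.3% of all genes tested, with a median of 0.39. Mybl2 (0.91, adjusted p = 2.26e-09), E2f8 (0.78, adjusted p = 5.87e-08) and E2f7 (0.48, adjusted p = 1.35e-06), of which the E2F pair are repressors, were among those that rose, Lin37 (-0.32, adjusted p = 0.000207) was lower and Rb1 did not pass (-0.14, adjusted p = 0.108). Cell cycle phase markers moved with the replication genes: 12 of 16 were higher, 0 lower and 4 did not pass, with a median of 0.22, and at an unadjusted p under 0.05 the counts were 13 higher and 1 lower. Their mean log2 level was 11.95 to 11.98 on the Smo shRNA arrays, against 11.73 to 11.75 on the control shRNA arrays. The markers with the smallest p were Bub1 (0.56, adjusted p = 6.76e-08), Foxm1 (0.41, adjusted p = 5.31e-07) and Cdc25a (0.45, adjusted p = 1.11e-06). Cdk1 (0.085), Cdc20 (-0.088), Cenpa (0.067) and Plk1 (0.035) did not pass. Genes known to peak in G2 and mitosis were thus on both sides of the threshold, since Bub1, Foxm1, Aurkb (0.24, adjusted p = 7.31e-06), Aurka (0.22, adjusted p = 0.00027), Ccnb2 (0.17, adjusted p = 0.000495) and Ube2c (0.084, adjusted p = 0.0185) were higher. The part of cycling cells in the differences of the replication genes was not tested.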

How the data were processed

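The table deposited by the authors gives 1 log2 value per exon probe set (1256831) and array. The log2 scale is inferred from its range, up to 15.14. No source used here states how probe sets were summarised, background-corrected or normalized. Probe sets at exactly 0 on every array (20744) fell below the filter. Platform annotation gave 318760 probe sets 1 symbol, 6684 several (left out) and 931387 none. Symbols were updated through the RefSeq gene table of GRCm38.p6: 18006 of 22296 were current and 4227 were updated by a synonym. Single-symbol probe sets with a mean at or above the median of all (6.56) were kept (245574), and genes with 3 or more were summarised by Tukey's median polish into 16871 gene values (median 11 probe sets). limma 3.58.1 in R 4.3.3 compared Smo shRNA minus control shRNA (lmFit, eBayes with trend, two-sided, Benjamini-Hochberg, threshold 0.05), and SE is moderated. Probe sets were fitted in the same way. The calculation was tested on simulated data. The number of arrays limits the precision.

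The genes, lists and pairs were chosen with earlier results of these data known. Values on every array are given for up to 3 passing genes per step with the largest differences and the 3 genes with the smallest. Those of Orc3, Fen1, Rpa3 and Rrm2 were added after their values were seen, as were the names of probe sets that stood apart. Of each further list, up to 3 genes per direction with the smallest p are named, besides the phase markers that did not pass. The G2 and mitosis genes, Hira, Cabin1, Asf1a, Pole4, Pold4, Rnaseh2a and Rnaseh2c were added after their values were seen. Alternatives changed the filter, gene summary, number of probe sets, variance trend, normalization between arrays, replicate block, null hypothesis and arrays used.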

Additional observations from a re-analysis of the deposited data

How the results depend on the processing

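The count of replication and nucleotide genes that were higher lay between 38 and 41 (41 where genes with 1 probe set were admitted) under the other filters, gene summaries, variance model, scalings and replicate block, and between 34 and 38 without 1 array, and 0 were lower under every alternative run. Tested against a minimum of 1.2-fold, 24 of them, 956 of all genes higher and 909 lower passed. Of the 39 calls, 33 held in all 15 other alternatives, and those of E2f1, Slbp, Orc5, Rfc1, Rpa2 and Orc4 were lost in some. The median difference over all 45 genes was 0.42 with the mean of probe sets and 0.42 with quantile normalization, and ran from 0.40 to 0.48 without 1 array. The sign turned for Tyms, at -0.0034 without Smo shRNA replicate 3 and -0.0034 without control shRNA replicate 1, within a range up to 0.0242 without 1 array. Among the pairs, Prim1 minus Prim2 turned to -0.013 with the mean of probe sets and -0.011 with quantile normalization, and ran from -0.0245 to 0.037 without 1 array. Rpa2 minus Rpa1 turned to -0.0496 with the mean of probe sets, and Tipin minus Timeless to -0.022 with quantile normalization and -0.006 with the stricter filter, while it lay between 0.042 and 0.12 without 1 array. The cause of these moves was not tested. Same-numbered arrays of the lines deviated together with correlations of 0.08, 0.10 and 0.39 across genes, and Smo shRNA replicate 1 correlated best with control shRNA replicate 2 (0.31), so the numbers were not taken as pairs. With the replicate number as a block, 39 of the 45 genes were higher, and 3787 of all genes were higher and 3137 lower. Fen1, with 4 probe sets, and Rpa3 and Rrm2, with 1 each, rest on the fewest measurements.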
